A study of Mus musculus with 6 samples.

Results

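Acyl-CoA dehydrogenases and the flavoproteins that accept their electrons were followed across cultured hepatocytes treated with 2 agonists of the nuclear receptor PPAR-delta. The set was given as a list of 10 genes, namely Acadl, Acadm, Acads, Acadvl, Acad11, Acadsb, Acad9, Etfa, Etfb and Etfdh, and its members were every array probe with 1 of these symbols in the platform annotation. Of the 25697 probes, 19 carried such a symbol. They covered 9 of the 10 genes, since no probe was named for Acad11, whose product acts on long acyl chains. Each probe was read separately.

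Per the labels, the primary hepatocytes came from male mice, 10 weeks old and wildtype on the C57Bl6/J background, as did the cells of every group. One group had received the vehicle DMSO, another KD3010 and the last GW1516. Groups held 2 bead arrays each, called A and B here. The labels name them technical replicates, so the p-values below reflect array-to-array spread and not differences between animals or cultures. The sources used here give no dose, treatment time, number of animals or pooling.

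Each round of mitochondrial fatty acid oxidation opens with an acyl-CoA dehydrogenase, which places a double bond next to the thioester and moves the electrons to its bound flavin. The enzymes divide the work by acyl chain length, and all hand their electrons to the electron transfer flavoprotein, a dimer of Etfa and Etfb. Etfdh, an inner membrane oxidoreductase, passes them on to ubiquinone, and inherited loss of Etfa, Etfb or Etfdh function in humans impairs all of these dehydrogenases together. PPAR-delta is a lipid-sensing nuclear receptor known to raise fatty acid oxidation genes, best described in muscle.

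On the 6 arrays, between 10239 and 10805 probes were detected, meaning brighter than the negative controls at a detection p below 0.05. A probe was tested if it was detected on both arrays of at least 1 group, which 10530 probes were. Levels below are log2 of the background-corrected, quantile-normalized intensity. A probe was called changed at an adjusted p below 0.05 and a fold of at least 1.5, by limma with Benjamini-Hochberg adjustment over all tested probes. Pdk4, an inhibitor of pyruvate dehydrogenase and a known PPAR target, rose 3.80-fold with KD3010 and 7.29-fold with GW1516 (limma, adjusted p = 0.0148 and 0.00161). A known target thus responded to both treatments, but it was chosen with earlier results of these data known. Of the hepatocyte markers, 10 of 15 with a probe were detected on all arrays, against 0 of 9 for Kupffer cells, 0 of 8 for lymphocytes, 7 of 10 for sinusoidal endothelial cells, 2 of 9 for stellate cells and 1 of 4 for cholangiocytes. The detected markers of a cell type were summed as intensities and taken to log2, so the brightest weigh most. For hepatocytes this sum ran from 18.04 to 18.10 in DMSO, 18.07 to 18.15 in KD3010 and 18.06 to 18.16 in GW1516. The endothelial sum ran from 11.73 to 11.74, 11.68 to 11.72 and 11.83 to 11.89 in the same order, and the stellate sum from 12.04 to 12.18, 11.97 to 12.17 and 11.95 to 12.16. The detected cholangiocyte marker ran from 9.46 to 9.74 in DMSO, 8.90 to 9.34 in KD3010 and 9.56 to 9.65 in GW1516, so it was lowest on the KD3010 arrays. The part of these markers in the results was not tested. In bulk RNA, fewer cells of a type and less RNA per cell cannot be told apart.

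Of the 19 member probes, 17 were detected on all 6 arrays. The other 2, Acadl ILMN_2735084 and Etfdh ILMN_3005058, were detected on no array and were not tested. Each tested member value averaged between 21 and 59 beads, and its bead standard error had a median of 8.32% of the intensity.

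Acadl, the long-chain acyl-CoA dehydrogenase, was the only member with a called change, and 1 of its 2 detected probes was called. Of the 17 tested member probes, 0 were called with KD3010, where 0.104% of all tested probes were, and 1 was called with GW1516, where 0.095% were. Probe ILMN_2783519 read 6.88 and 6.57 on the DMSO arrays, 7.92 and 7.88 on the KD3010 arrays and 8.06 and 8.23 on the GW1516 arrays. Both agonist groups lay wholly above the vehicle arrays. The probe rose 2.68-fold with GW1516, a log2 change of 1.42 ± 0.18 (SE; limma, adjusted p = 0.0327; 95% interval 1.03 to 1.82). With KD3010 the log2 change was 1.18 ± 0.18, or 2.27-fold (limma, adjusted p = 0.0581), short of the threshold. Against both agonists together the change was 1.30 ± 0.15 and was called (limma, adjusted p = 0.0158).

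The other detected Acadl probe, ILMN_2689473, read 8.47 and 8.27 in DMSO, 8.98 and 9.12 in KD3010 and 9.50 and 9.21 in GW1516. Its 3 groups also stood apart in the same order. The log2 change was 0.67 ± 0.18 with KD3010 and 0.98 ± 0.18 with GW1516, folds of 1.60 and 1.98, and neither was called (limma, adjusted p = 0.227 and 0.193). Among all tested probes, 141 rose more than this one with KD3010 and 17 with GW1516, whereas 13 and 5 rose more than ILMN_2783519.

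The size of the Acadl change depended on the background correction. In the authors' normalized table ILMN_2783519 averaged an intensity of 321.7 in DMSO, 456.9 in KD3010 and 501.1 in GW1516, ratios of 1.42 and 1.56. ILMN_2689473 averaged 551.1, 746.0 and 872.8, ratios of 1.35 and 1.58. Without background correction the log2 change of ILMN_2783519 with GW1516 was 0.61, and leaving out any 1 array took its adjusted p in limma to between 0.0782 and 0.445. On the DMSO arrays this probe was close to the detection limit, with detection p-values of 0.00752 and 0.0188.

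**Figure D1:**
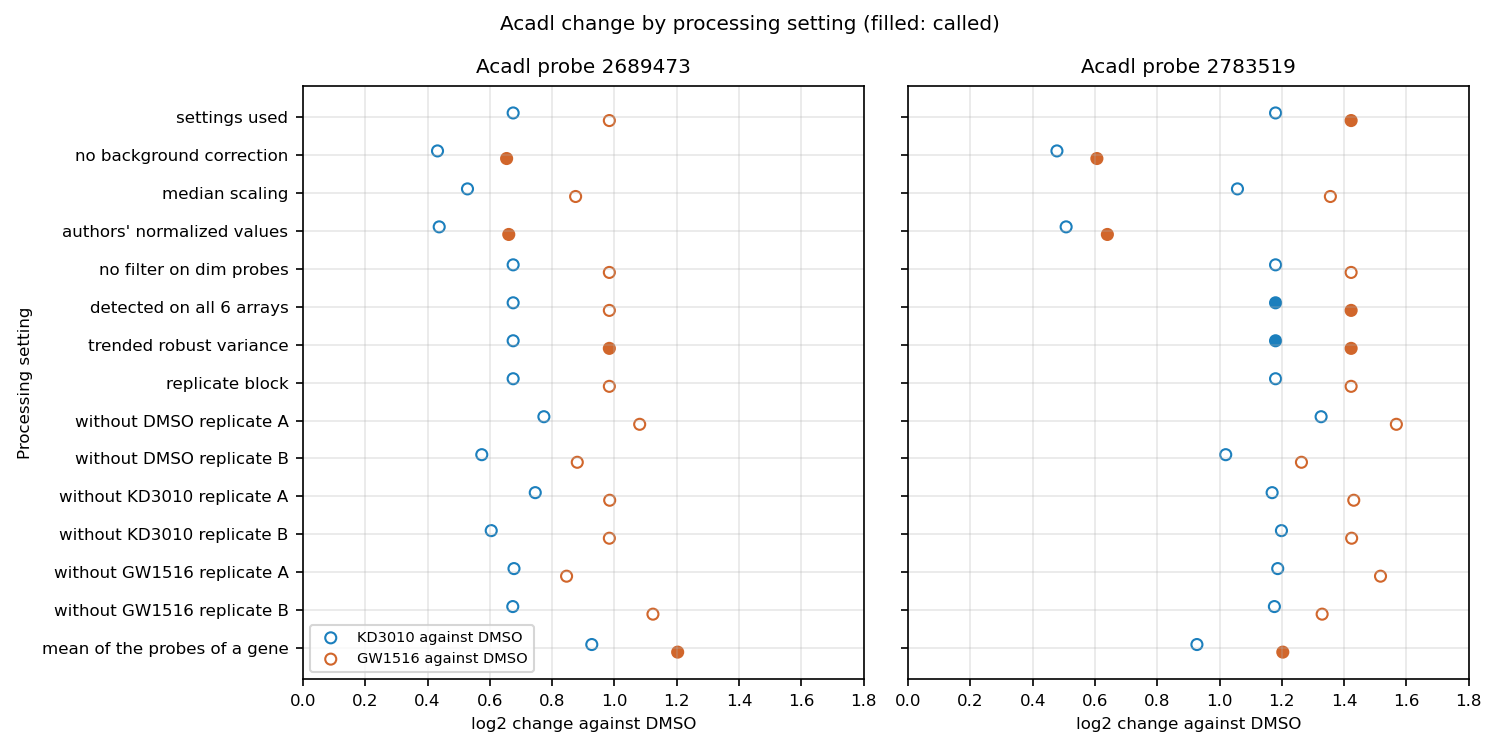
Log2 change of the 2 detected Acadl probes against DMSO (x axis) under the settings used and each of 14 alternatives (y axis), for KD3010 and GW1516, with filled points where the change was called. All points lie above 0, and with GW1516 they run from 0.65 to 1.20 for ILMN_2689473 and from 0.61 to 1.57 for ILMN_2783519.

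**Figure D2:**
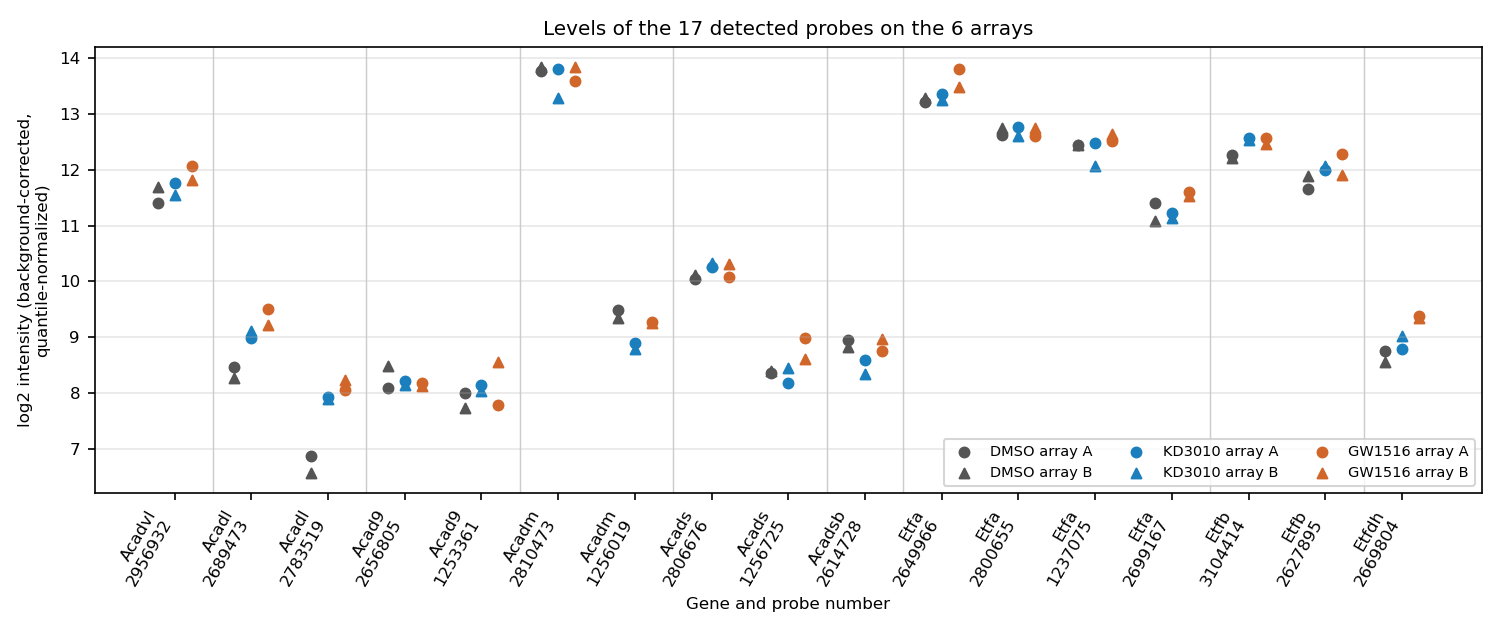
Log2 intensity of each of the 17 detected member probes on the 6 arrays (y axis; circles for array A, triangles for array B, coloured by treatment) by gene and probe number (x axis). Both Acadl probes have all agonist arrays above both vehicle arrays, with ILMN_2783519 between 6.57 and 6.88 in DMSO and between 7.88 and 8.23 with an agonist.

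The 250 bases before the Acadl start are shown because Acadl had the called probe. Those of the medium-chain and very-long-chain enzymes, which were not called, are shown beside them. They come from RefSeq on build GRCm38.p6, where 9 of the 10 members were matched. The 3 windows lie on the minus strand, at chr1:66863310-66863559 for Acadl, chr3:153944644-153944893 for Acadm and chr11:70015429-70015678 for Acadvl. Capitals mark AGGTCA, the core motif of nuclear receptor sites, or its reverse complement TGACCT.
Acadl: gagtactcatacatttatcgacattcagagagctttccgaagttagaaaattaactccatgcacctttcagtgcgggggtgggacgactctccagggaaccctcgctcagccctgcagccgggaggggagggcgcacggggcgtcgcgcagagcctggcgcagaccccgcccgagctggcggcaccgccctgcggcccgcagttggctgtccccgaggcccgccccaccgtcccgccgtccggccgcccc
Acadm: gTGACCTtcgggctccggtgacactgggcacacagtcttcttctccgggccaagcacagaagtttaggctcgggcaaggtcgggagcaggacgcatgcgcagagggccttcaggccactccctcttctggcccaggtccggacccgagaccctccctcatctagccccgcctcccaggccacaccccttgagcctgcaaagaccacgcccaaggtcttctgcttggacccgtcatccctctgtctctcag
Acadvl: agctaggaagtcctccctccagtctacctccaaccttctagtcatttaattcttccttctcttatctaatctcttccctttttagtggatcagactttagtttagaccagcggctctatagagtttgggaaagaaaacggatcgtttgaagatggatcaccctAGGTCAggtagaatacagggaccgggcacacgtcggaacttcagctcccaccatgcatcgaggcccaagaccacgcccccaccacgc
Searched on both strands, AGGTCA stood in 2 of the 9 member windows, Acadm and Acadvl, and in 14% of the 32851 windows of that length. The direct repeat AGGTCANAGGTCA, which contains the shorter motif, stood in 0 of the 9 and in 0.0335% of all windows. A match is only a stretch of letters, and its absence here says nothing of sites elsewhere.

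The very-long-chain enzyme Acadvl, bound to the inner membrane, had 1 probe. It read 11.41 and 11.70 in DMSO, 11.76 and 11.55 in KD3010 and 12.06 and 11.81 in GW1516, so the GW1516 arrays lay above both DMSO arrays and the KD3010 arrays overlapped them. The log2 change was 0.38 ± 0.19 with GW1516 and 0.10 ± 0.19 with KD3010 (limma, adjusted p = 0.570 and 0.883). Acad9, a relative of Acadvl that also serves as an assembly factor of respiratory complex I, gave changes between -0.14 and 0.30 over its 2 probes and both agonists. Of these 2, ILMN_1253361 read 7.78 and 8.55 on the GW1516 arrays, the widest gap between arrays of a group for this gene.

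Acadm, the medium-chain enzyme whose inherited deficiency in humans impairs fat oxidation during fasting, was lower rather than higher on ILMN_1256019 with KD3010. The probe read 9.49 and 9.34 in DMSO, 8.90 and 8.79 in KD3010 and 9.27 and 9.25 in GW1516, so both agonist groups lay below the vehicle arrays. The log2 change with KD3010 was -0.57 ± 0.16 (95% interval -0.93 to -0.20) and was not called (limma, adjusted p = 0.258). With GW1516 it was -0.16 ± 0.16. On the other probe, ILMN_2810473, the changes were -0.25 ± 0.21 and -0.09 ± 0.21, and the KD3010 arrays at 13.80 and 13.29 overlapped the DMSO readings of 13.76 and 13.83.

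Short chains are handled by Acads, and the short branched chains of isoleucine breakdown by Acadsb. Acads ILMN_2806676 changed by 0.21 ± 0.17 with KD3010 and 0.11 ± 0.17 with GW1516 on the log2 scale, and ILMN_1256725 by -0.07 ± 0.19 and 0.42 ± 0.19. These 2 probes of the gene thus differed in which agonist gave the higher value. Acadsb read 8.94 and 8.83 in DMSO, 8.59 and 8.34 in KD3010 and 8.74 and 8.96 in GW1516, and its KD3010 arrays were below all others. Its log2 change with KD3010 was -0.42 ± 0.18 (limma, adjusted p = 0.404).

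On the acceptor side, Etfdh had the highest change after Acadl with GW1516. Its detected probe ILMN_2669804 read 8.76 and 8.56 in DMSO, 8.79 and 9.02 in KD3010 and 9.37 and 9.35 in GW1516. The GW1516 arrays lay above the other 4, and the KD3010 arrays above both DMSO arrays. The log2 change was 0.70 ± 0.17 with GW1516, or 1.63-fold, and 0.25 ± 0.17 with KD3010, and neither was called (limma, adjusted p = 0.314 and 0.620). A total of 104 probes rose more than this one with GW1516.

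The electron transfer flavoprotein subunits moved less. Etfb, the beta subunit, read 12.27 and 12.21 on ILMN_3104414 in DMSO, 12.57 and 12.53 in KD3010 and 12.57 and 12.46 in GW1516. Both agonist groups were above DMSO, with log2 changes of 0.31 ± 0.16 and 0.28 ± 0.16 (limma, adjusted p = 0.484 and 0.629), and ILMN_2627895 gave 0.26 ± 0.19 and 0.32 ± 0.19. Etfa, the alpha subunit, had 4 probes, whose changes ran from -0.17 to 0.05 with KD3010. With GW1516 its ILMN_2649966 and ILMN_2699167 gave 0.38 ± 0.17 and 0.33 ± 0.17, ILMN_1237075 gave 0.13 ± 0.19 and ILMN_2800655 gave 0.00 ± 0.17, so probes of this gene did not give 1 common value.

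**Figure D3:**
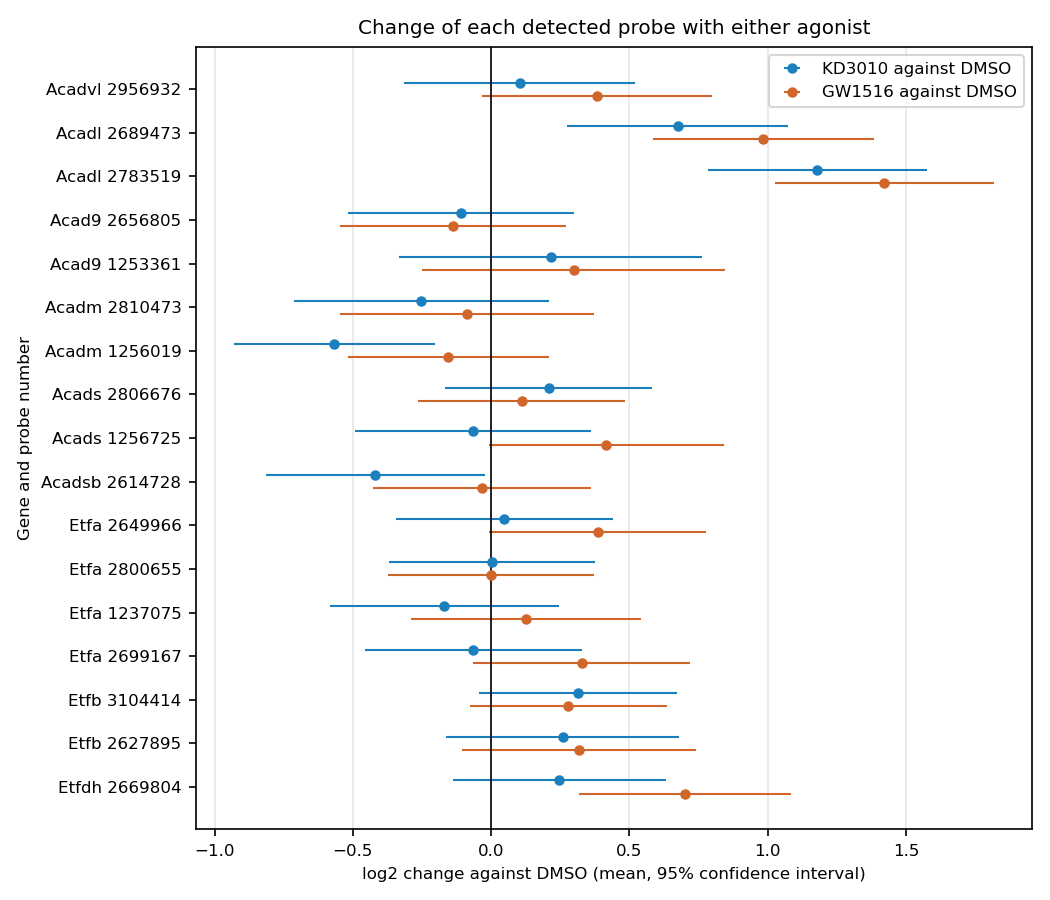
Log2 change of each detected member probe against DMSO with its 95% interval from limma, for KD3010 and GW1516, ordered by chain length and then the electron acceptors. The intervals of both Acadl probes lie above 0 for both agonists, and that of Etfdh for GW1516 (0.32 to 1.08), and those of Acadm ILMN_1256019 (-0.93 to -0.20) and Acadsb lie below 0 for KD3010.

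Over the 17 tested member probes, 1 was called for both agonists together against DMSO, as were 0.114% of all probes. At an unadjusted p below 0.05, 2 were higher and 2 lower with KD3010, where 11.7% of all probes passed, 5.46% higher and 6.25% lower. With GW1516, 3 were higher (both Acadl probes and Etfdh) and 0 lower, where 9.34% of all probes passed, 4.61% higher and 4.74% lower. Both comparisons share the DMSO arrays. The median log2 change of the member probes was 0.05 with KD3010 and 0.30 with GW1516, and that of all probes was 0.00 in both. With arrays scaled to equal medians instead, the median over all probes became -0.12 with KD3010 and -0.09 with GW1516. The member median then was -0.05 with KD3010 and 0.20 with GW1516, and 7 in place of 10 of the 17 member changes with KD3010 were above 0. With GW1516 both arrays lay above both DMSO arrays on 10 of the 17 member probes, and below on 1, where 20.6% and 19.8% of all tested probes did so. With KD3010 they lay above on 7 and below on 2, where 21.5% and 22% did so. Several of these probes share a gene, so they are not separate observations.

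**Figure D4:**
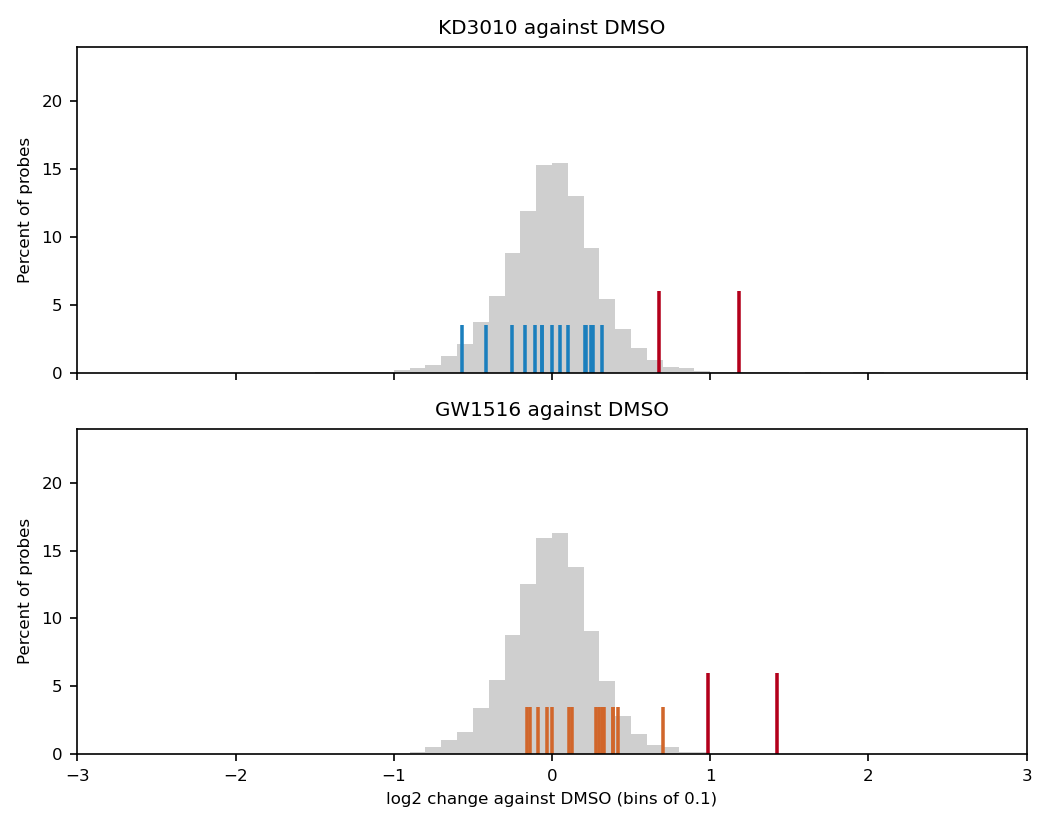
Percent of the 10530 tested probes (y axis, grey bars) by log2 change against DMSO (x axis) for KD3010 and GW1516, with the 17 member probes as ticks, the taller red ones being Acadl and the blue or orange ones the other members. Both Acadl probes sit in the upper tail in each panel, and with GW1516 only 17 probes exceed ILMN_2689473 and 5 exceed ILMN_2783519.

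By chain length, the change of Acadl was set against that of each other gene, using the brightest probe of each and the mean of both agonists. For Acadl this was ILMN_2689473, which was not called, and further probes of a gene were not used. Acadl exceeded the others by between 0.36, for Etfdh, and 1.05, for Acadsb, with 0.59 for Acadvl, 1.00 for Acadm and 0.67 for Acads. The difference between the Acadl level and that of the other gene was higher on all 4 agonist arrays than on both DMSO arrays in 8 of 8 genes. All 8 share the Acadl values, and the Acadl probe by itself already lay above DMSO on all 4 agonist arrays. This count was thus largely set in advance, and the share over all tested probes was not computed. Acadl was set against the others because it was the member with a called probe, so these differences are a description. An exact permutation test over the 15 splits of the arrays gave p = 0.133 for each of the 8. That is the smallest value this test can give, so it could not decide the question.

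Set directly against each other, the agonists gave 0 called member probes, and 0 of the 10530 tested probes were called (0%), where the lowest adjusted p in limma was 0.0836. At an unadjusted p below 0.05, 13.6% of all probes passed (6.22% higher and 7.41% lower with KD3010), and among the members 0 were higher and 3 lower. These were Acadm ILMN_1256019, Acads ILMN_1256725 and Etfdh. Their differences, KD3010 minus GW1516, were -0.41 (95% interval -0.77 to -0.05), -0.48 (-0.91 to -0.06) and -0.45 (-0.84 to -0.07) on the log2 scale (limma, adjusted p = 0.321, 0.322 and 0.307). Acadl differed by -0.31 (-0.71 to 0.09) on ILMN_2689473 and by -0.24 (-0.64 to 0.15) on ILMN_2783519, intervals that include both no difference and a lower value with KD3010. The KD3010 arrays were wholly below the GW1516 arrays on 10 of the 17 member probes and wholly above on 0, against 23.7% and 21.3% of all tested probes. The member median was -0.28 and that of all probes -0.00. Since doses and times are not given, these values describe the 2 treatments as applied.

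The rest of mitochondrial fatty acid oxidation was represented by 25 tested probes of 17 genes out of 22 listed. Acsl1 and Hadha had no probe, and Cpt1a, Cpt1b and Hadh had none that passed the detection rule. The list also held the thioesterases Acot2, Acot9 and Acot13. Of the 25 probes, 0 were called with KD3010 and 1 was called higher with GW1516, where 0.104% and 0.095% of all tested probes were called. At an unadjusted p below 0.05, 8 and 7 were higher, where 5.46% and 4.61% of all tested probes were. In the same order 0 and 2 were lower, where 6.25% and 4.74% of all tested probes were. Several of these probes share a gene. The called probe was Slc22a5 ILMN_2834916, the carnitine importer of the plasma membrane, which rose 2.37-fold with GW1516, a log2 change of 1.25 ± 0.17 (limma, adjusted p = 0.0411), and gave 0.99 ± 0.17 with KD3010 (adjusted p = 0.119). Slc22a5 ILMN_2834915 gave 0.84 and 0.76, and ILMN_2651273 gave 0.03 and 0.22. Cpt2, which rebuilds acyl-CoA inside the mitochondrion, gave 0.81 ± 0.17 and 0.82 ± 0.17 (limma, adjusted p = 0.155 and 0.299). The median change of the list was 0.33 with KD3010 and 0.17 with GW1516.

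Neighbouring lists had 0 called probes in every comparison, where at most 0.114% of all tested probes were called. The other acyl-CoA dehydrogenases and oxidases, with 8 tested probes, had medians of -0.11 and 0.00 for KD3010 and GW1516. Among them Acox3, a peroxisomal oxidase of branched chains, gave 0.57 ± 0.26 with GW1516 (limma, adjusted p = 0.536) and -0.21 ± 0.26 with KD3010. Dmgdh and Sardh, which feed electrons from choline breakdown into the same flavoprotein, gave between -0.10 and 0.13. The 4 tested probes of the flavin supply and flavoprotein regulators had medians of -0.19 and 0.03, with 1 and 3 changes above 0. Among them Slc25a32, the mitochondrial carrier linked to flavin import, gave -0.32 with KD3010 and -0.12 with GW1516, and Flad1 gave 0.24 and 0.13. The 5 tested complex I assembly partners of Acad9 had medians of -0.12 and -0.23, with Tmem186 at -0.44 with KD3010 (limma, adjusted p = 0.361).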

How the data were processed

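The deposited table of unnormalized values holds the mean bead intensity of each probe, per the file headers. The submitters' processing notes name GenomeStudio. Each intensity has a deposited detection p-value against the negative controls, per the file headers. A table of intensities normalized by the authors, whose method the sources here do not state, equalled the series matrix values (largest difference 0), and 1 unnamed column of it was not used.

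Intensities were corrected by normexp using the detection p-values (offset 16), quantile-normalized and taken to log2. All 6 arrays entered limma 3.58.1 (R 4.3.3; lmFit and eBayes), with group as the only term. Platform symbols were updated through Entrez identifiers for 23962 probes, accessions for 9 and array symbols for 7, leaving 1719 unnamed. Every member probe is named. Of the pathway lists, genes called were named, otherwise the 2 with the smallest p per list and comparison, of which some are given. The members, lists and rules were chosen with earlier results of these data known. Columns name the group and a letter; equal values in the series matrix (100% of probes) tie A to replicate 1 and B to replicate 2 of the group. Arrays with the same letter did not deviate together (correlations -0.0141, -0.00865 and 0.0183). Alternatives covered background, scaling, filter, variance, probe averaging, a letter block and each array left out. The number of arrays limits the precision. The fit was tested on simulated data.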

Additional observations from a re-analysis of the deposited data

How the results depend on the processing

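Of 49 probe changes under 14 alternatives, 632 values kept their direction and side of the threshold, 29 reversed, 8 passed it newly and 17 no longer did. The member probes called with KD3010, 0 in the main setting, were 1 with probes detected on all arrays or with a trended robust variance. With GW1516, 1 in the main setting, they were 2 without background correction, with the authors' values or with the trended variance, and 0 with median scaling, without the filter, or without any 1 array. Against both agonists, 1 in the main setting, they were 2 with the trended variance and 0 without background correction, with the authors' values or without any 1 array. Over all probes, calls ran from 0 to 56 with KD3010, 0 to 19 with GW1516, 1 to 42 against both and 0 to 73 between the agonists, where the trended variance gave 73. The arrays' letters share only a name, and with them as a replicate block the called member probes with GW1516 were 0 (all probes 2). Median scaling moved the median of all probes by -0.12 with KD3010 and -0.09 with GW1516.

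Every reversed change was at most 0.30 in size in the main setting. Under median scaling with KD3010, Etfa ILMN_2649966 gave -0.054, Etfa ILMN_2800655 -0.094 and Acadvl -0.013, and Acads ILMN_2806676 gave -0.0089 with GW1516. The authors' values gave -0.0045 for Etfa ILMN_2800655 with KD3010. Averaging all probes of each gene gave, with KD3010, 0.071 for Acads ILMN_1256725, -0.046 for Etfa ILMN_2649966 and ILMN_2800655 and 0.053 for Acad9 ILMN_2656805, and with GW1516 0.080 for that Acad9 probe and 0.21 for Etfa ILMN_2800655. Leaving out 1 array with KD3010 gave -0.37 to 0.037 for Etfa ILMN_1237075, -0.20 to 0.073 for Acads ILMN_1256725, -0.0052 to 0.10 for Etfa ILMN_2649966, -0.31 to 0.086 for Acad9 ILMN_2656805, -0.23 to 0.098 for Etfa ILMN_2699167, -0.079 to 0.085 for Etfa ILMN_2800655, -0.51 to 0.0033 for Acadm ILMN_2810473 and -0.042 to 0.25 for Acadvl. With GW1516 it gave -0.084 to 0.68 for Acad9 ILMN_1253361, -0.14 to 0.076 for Acadsb, -0.34 to 0.057 for Acad9 ILMN_2656805, -0.068 to 0.067 for Etfa ILMN_2800655, -0.0058 to 0.23 for Acads ILMN_2806676 and -0.22 to 0.039 for Acadm ILMN_2810473. The cause was not tested.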

Other observations

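The 5 named probes of other genes whose log2 pattern over the 6 arrays lay closest to Acadl ILMN_2689473 were those of Atp2c1, Rab3ip, Bckdhb, Hbs1l and Magi1, at root mean square differences of 0.0482, 0.124, 0.132, 0.136 and 0.142. Bckdhb, a subunit of the branched-chain keto acid dehydrogenase, gave log2 changes of 0.68 with KD3010 and 0.92 with GW1516 and was not called (limma, adjusted p = 0.207 and 0.193). The other detected Acadl probe lay at 0.267, and 192 named probes were closer than it. Of the 5 probes, those of Atp2c1 and Magi1 averaged 6.08 and 5.91 in DMSO. Acadl ILMN_2783519, close to the detection limit in DMSO, averaged 6.72 there.

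In the authors' normalized table, the arrays of a group differed by more than 1.96 combined bead standard errors in 4 of 51 pairs of member probe and group, where bead noise alone would pass that limit in about 5% of pairs, or 2.55. The 4 were Acad9 ILMN_1253361 with GW1516, Acadm ILMN_2810473 with KD3010, Etfa ILMN_2649966 with GW1516 and Etfa ILMN_1237075 with KD3010.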
